A study of Rattus norvegicus with 44 samples.

Results

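The arrays described here cover the later step of differentiation of Ge2, a rat neural precursor cell clone, as the change between day 3 and day 7 after the growth factor FGF2 was taken away. They were the 3 arrays titled Ge2 at day 7 and the 3 arrays titled Ge2 at day 3, 6 of the 44 arrays of the series. The series followed 5 rat clones (Ge2, Ctx8, Ge6, L2.2 and L2.3) over 3 time points, day 0, day 3 and day 7. All clones had been grown with FGF2 on dishes coated with poly-lysine and laminin. At day 0 this medium was exchanged for DMEM/F12 with the B27 supplement, without FGF2 and with a little fetal bovine serum, so by their labels the day 7 and day 3 cultures differed in their time in the same medium. The labels call Ge2 a nonneuronal precursor and give neither the age nor the sex of the animals. Ge2 is 1 clone and its replicates are sister cultures, so no p-value below measures the spread between animals or clones. Unless said otherwise, the spread is that between replicate cultures within a group, estimated over the groups of all 5 clones and not from Ge2 alone.

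Neural precursors kept in FGF2 divide, and when FGF2 is withdrawn they leave the cell cycle and differentiate into neurons or glia. Astrocytes, the main supporting glia of the brain, are recognised by intermediate filaments such as GFAP, by the water channel aquaporin-4, by the calcium-binding protein S100B and by secreted lipid carriers such as apolipoprotein E. They also hold metallothioneins, small cysteine-rich proteins that bind zinc and copper.

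RNA was measured on Affymetrix arrays, on which a set of short probes reports each transcript. The values were intensities that the authors had summarised with RMA, a method that corrects background, brings the arrays to a common distribution and combines the probes of a set. They were taken to the log2 scale here, and each of 12749 genes was read from 1 probe set. The median intensity lay between 27.2 and 28.0 on the 6 arrays, and the 40th percentile of all values, 16.3, was used as the mark of a signal near background. An intensity compares the same gene between arrays and not one gene with another. In cultures measured in bulk, fewer cells of a type and less RNA per cell cannot be told apart.

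Most astrocyte markers were well above background and most neuronal markers were not. The summed intensity of 13 astrocyte markers was 19153 to 20420 on the day 7 arrays and 13183 to 13311 on the day 3 arrays. Slc1a2, Gja1 and Aldh1l1 were near background on both days. Of 11 neuronal markers, 8 were under 16.3 at day 7 and 7 at day 3, and Map2, which encodes a microtubule-associated protein, supplied most of their sum. That sum was 1357 to 1460 at day 7, against 1591 to 1767 at day 3. All 8 microglial markers were under 16.3 on both days. Of 6 endothelial markers 5 were under it on each day, with Tek (17.1) above it at day 7 and Kdr (24.4) at day 3. The 8 mesenchymal markers summed to 3676 to 3996 at day 7 and 1973 to 2114 at day 3, almost wholly through Postn and Ogn, while Col1a2, Col3a1, Lum and Dcn were near background on both days. The 6 markers of pericytes and smooth muscle summed to 1506 to 2008 at day 7 and 1078 to 1417 at day 3, mostly through the actin-binding protein gene Tagln, and none of them passed the test. The 6 measured neural precursor markers, with the fatty acid-binding protein gene Fabp7 as the brightest, summed to 8232 to 8653 at day 7 and 8739 to 9034 at day 3. Markers of oligodendrocytes and their precursors and of Schwann and neural crest cells each summed to at most 293 on any of the 6 arrays.

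Of the 3 day 7 arrays, replicates 1 and 2 stood apart. Day 7 replicate 1 had 48 genes at least 2-fold above the mean of the other day 7 arrays, 10 of them among the 55 measured genes of the cell cycle lists. Day 7 replicate 2 had 91 genes at least 2-fold below the mean of the other day 7 arrays. Among the 39 arrays that are neither Ge2 day 7 nor in a group of 2, no array had more than 15 such genes in either direction. Values without each of these arrays are given beside the results that rest on them.

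Fewer genes were called between day 3 and day 7 in Ge2 than in its first 3 days. With limma and Benjamini-Hochberg adjustment over all genes, 2129 of 12749 genes differed at an adjusted p under 0.05 (16.7%), of which 1150 were higher at day 7 (9.02%) and 979 lower (7.68%). At least a 2-fold change was seen for 129 of them (1.01%), 102 higher (0.8%) and 27 lower (0.212%). The change between day 0 and day 3, which shares the day 3 arrays, called 7644 genes, 2743 of them at least 2-fold. The spread in this fit was pooled within the groups of all 44 arrays. The wide spread of the Ge2 day 7 arrays was thus averaged with that of the other groups. A fit to the 6 arrays alone called 898 genes, 557 higher and 341 lower, and a test against a minimum of 1.2-fold called 336. Without day 7 replicate 1, or without day 7 replicate 3, the genes at least 2-fold lower numbered 46. Without day 7 replicate 2 they numbered 19, and 706 genes were called lower. Of the 979 genes called lower with all arrays, 635 were still called lower without day 7 replicate 2.

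**Figure D1:**
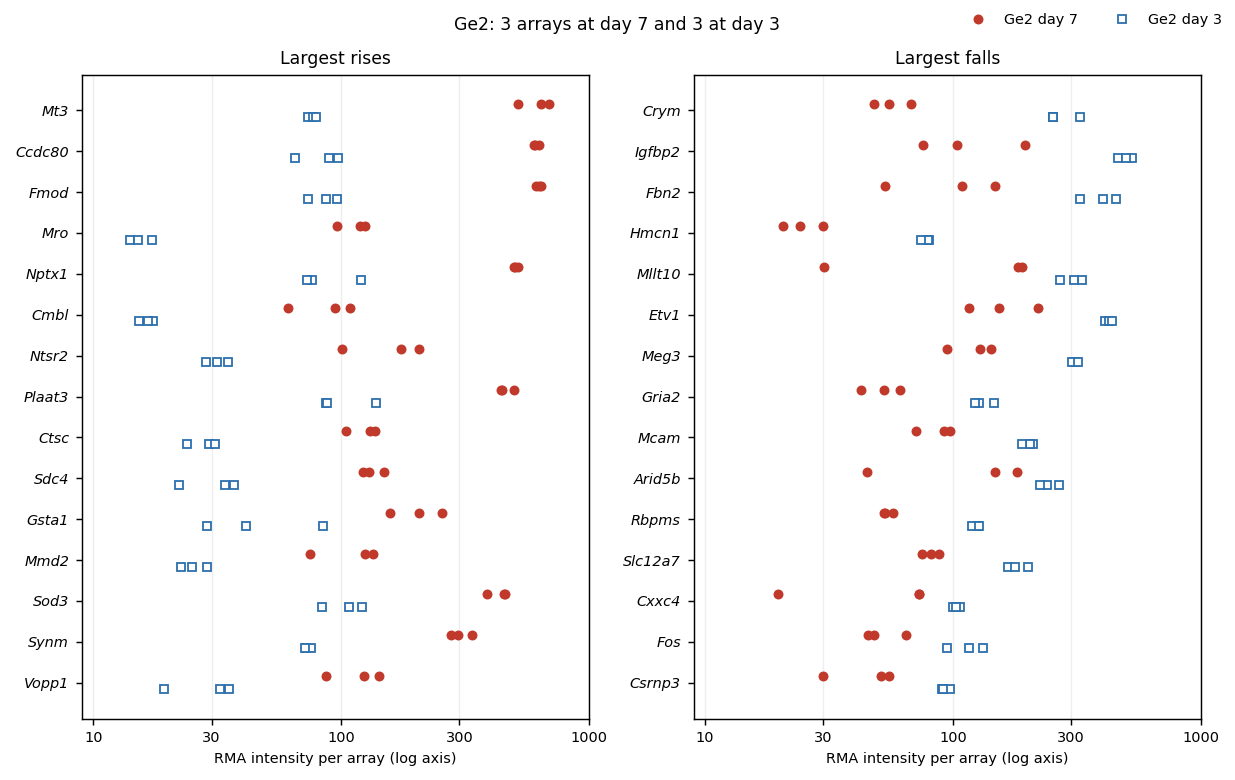
RMA intensity (log axis) of the 15 genes with the largest rises and the 15 with the largest falls in Ge2, with filled red circles for the 3 arrays of day 7 and open blue squares for the 3 arrays of day 3. The day 7 and day 3 points of each gene do not overlap, which the choice of genes required, and for Mllt10, Arid5b and Cxxc4, 1 day 7 array lies far below the others.

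The largest rise was that of Mt3, a metallothionein of the brain. Its intensity was 518, 637 and 688 at day 7 and 73.4, 76.7 and 79.0 at day 3, so that all day 7 arrays lay far above all day 3 arrays. The difference was 3.00 ± 0.14 on the log2 scale (SE, n = 3 each, adjusted p = 1.69e-17). Over the 3 time points Mt3 averaged 577 ± 39.8 at day 0, 76.4 ± 2.79 at day 3 and 614 ± 87.1 at day 7 (SD, n = 3 each), so the day 7 level was back near that of the undifferentiated cells. Mt1, a metallothionein made in most tissues, had 135, 194 and 206 at day 7 and 67.3, 53.8 and 59.9 at day 3 and rose by 1.54 ± 0.15 (adjusted p = 9.57e-10). Mt2A, another widely made metallothionein, had 90.7, 70.9 and 86.2 at day 7 and 43.1, 35.6 and 40.3 at day 3 and rose by 1.05 ± 0.16 (adjusted p = 9.73e-06). All 3 genes were called higher, and none of them overlapped between the days, which was so for 3666 of the 12749 genes (28.8%). Metallothionein genes are close copies of each other, so how far a probe set reports only its own gene is uncertain.

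The promoters of these 3 genes are shown because the genes lie near each other and moved the same way. The windows are the 250 bases before each RefSeq start on rat build GRCr8, minus strand, at chr19:10856081-10856330 for Mt3, chr19:10832976-10833225 for Mt1 and chr19:10838709-10838958 for Mt2A. The starts of the Mt1 and Mt3 windows are 23.1 kb apart. Capitals mark the core of the metal response element, the sequence bound by the zinc-sensing factor MTF1, searched as TGCACNC or TGCGCNC on both strands with overlapping matches counted.
Mt3: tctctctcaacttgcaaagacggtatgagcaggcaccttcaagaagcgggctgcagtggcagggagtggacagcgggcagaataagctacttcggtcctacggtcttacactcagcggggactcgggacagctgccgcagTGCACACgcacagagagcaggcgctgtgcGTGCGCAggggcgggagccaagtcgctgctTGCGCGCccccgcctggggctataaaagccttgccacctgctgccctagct
Mt1: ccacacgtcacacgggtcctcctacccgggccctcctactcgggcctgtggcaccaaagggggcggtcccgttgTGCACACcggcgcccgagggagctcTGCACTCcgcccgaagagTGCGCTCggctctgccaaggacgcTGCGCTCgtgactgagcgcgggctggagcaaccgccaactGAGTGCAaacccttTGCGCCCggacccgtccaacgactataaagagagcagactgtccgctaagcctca
Mt2A: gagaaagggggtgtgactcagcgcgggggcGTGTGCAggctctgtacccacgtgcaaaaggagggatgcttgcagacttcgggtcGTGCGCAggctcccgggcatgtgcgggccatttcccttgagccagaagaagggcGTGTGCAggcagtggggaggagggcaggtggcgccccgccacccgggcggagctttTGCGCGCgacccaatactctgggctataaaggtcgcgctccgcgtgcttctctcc
The Mt3 window held 3 matches, the Mt1 window 6 and the Mt2A window 4. Of 33469 rat promoter windows of the same length, 20.6% held at least 1 match and 1.17% held at least 3. A match describes the letters and not a bound site.

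Of 24 measured astrocyte genes, 9 rose, 15 did not pass and 0 fell at the threshold (1 fell at an unadjusted p under 0.05 in limma), with a median log2 change of 0.23 against -0.005 over all genes. Over all genes 9.02% rose and 7.68% fell at the threshold, the shares to set beside this and the later list counts. Apoe, the lipid carrier, had 3306, 4065 and 3779.6 at day 7 and 903, 963 and 976 at day 3 and rose by 1.97 ± 0.20 (adjusted p = 2.26e-09). Aqp4, the water channel of astrocyte endfeet, had 456, 478 and 522 at day 7 and 117, 132 and 158 at day 3 and rose by 1.85 ± 0.21 (adjusted p = 2.91e-08). S100b had 858, 952 and 975 at day 7 and 269.8, 328 and 329 at day 3 and rose by 1.59 ± 0.15 (adjusted p = 9.56e-10). In each of these 3 genes the arrays of the 2 days were well separated. Other members that rose were the neurotensin receptor Ntsr2 (2.28), the FGF receptor Fgfr3 (1.58), carboxypeptidase E (Cpe, 1.49), the astrocyte membrane protein gene Mlc1 (1.19), clusterin (Clu, 0.77) and the glutamate transporter Slc1a3 (0.47).

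Gfap, the classical astrocyte filament, was among the members that did not pass. Its intensity was 726, 866 and 807 at day 7 and 783, 777 and 797 at day 3, with overlapping arrays and a difference of 0.02 ± 0.16 (adjusted p = 0.958). It had averaged 14.8 ± 1.33 at day 0, 786 ± 10.4 at day 3 and 799 ± 70.1 at day 7, so its change lay in the first 3 days. In the other clones the late change of Gfap was 3.82 in Ctx8, 3.69 in Ge6, 2.03 in L2.2 and 2.80 in L2.3, and Ge2 differed from their mean by -3.06 ± 0.18 (adjusted p = 7.6e-15). Gfap was not alone in this. Of the 24 astrocyte genes, 12 had a lower late change in Ge2 than that mean and 3 a higher one. Over all genes the shares were 9.37% lower and 11.6% higher. Synm, which encodes synemin, an intermediate filament protein that pairs with GFAP and vimentin, had 278, 337 and 295 at day 7 and 72.4, 75.7 and 71.5 at day 3 and rose by 2.05 ± 0.16 (adjusted p = 1.33e-11). Aldoc, the brain form of aldolase, stayed at 6066 ± 141 at day 7 and 5772 ± 214 at day 3 (log2 difference 0.07, adjusted p = 0.651), and Gja1, the gap junction gene connexin 43, was near background on both days.

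**Figure D2:**
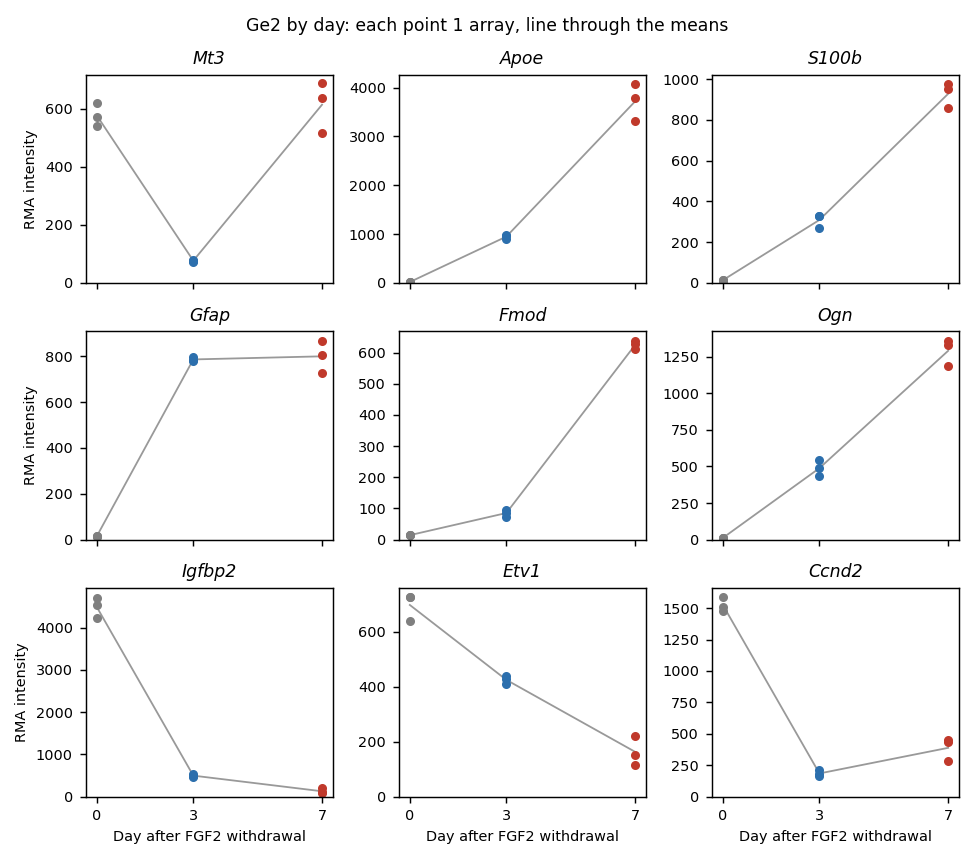
RMA intensity of 9 genes in Ge2 at day 0, day 3 and day 7, with 1 point per array and a line through the means. Mt3 is high, low and high again, Apoe and S100b climb at each step, Gfap is as high at day 3 as at day 7, and Igfbp2 drops at each step.

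Of 26 measured noncollagen matrix genes of mesenchymal type, 10 rose and 3 fell, with a median log2 change of 0.12. The shares over all genes were 9.02% and 7.68%. Fmod, which encodes fibromodulin, a small leucine-rich proteoglycan on collagen fibrils, had 637, 626 and 609.9 at day 7 and 73.5, 96.5 and 86.7 at day 3 and rose by 2.88 ± 0.13 (adjusted p = 6.82e-18). Ogn, which encodes the related osteoglycin, had 1328, 1355 and 1186 at day 7 and 487, 547 and 432 at day 3 and rose by 1.40 ± 0.11 (adjusted p = 1.05e-11). Biglycan (Bgn) and osteomodulin (Omd), of the same family, rose by 1.45 ± 0.13 and 1.64 ± 0.11. All 4 belong to one proteoglycan family and, like 28.8% of all genes, none overlapped between the days. Of the 8 mesenchymal and fibroblast markers 3 rose and 0 fell: Ogn and Postn, which are matrix genes of this list too, and Col1a1. The Col1a1 call on the probe set used was lost without day 7 replicate 1. The part of mesenchymal cells in the matrix changes was not tested. The elastic fibre genes Fbln2, for fibulin-2, and Eln, for elastin, rose by 1.50 and 1.29, and Postn, for the adhesion protein periostin, rose by 0.72. The 3 members that fell were Vcan, for the large proteoglycan versican (-0.78), Mgp, for an inhibitor of calcification (-0.73), and Mfap4, for a microfibril protein (-0.58).

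Fibrillar collagens and their processing enzymes showed no shared direction: 3 of 22 measured members rose and 3 fell, with a median of 0.04. Loxl1, a lysyl oxidase that cross-links elastin, had 59.1, 75.6 and 65.5 at day 7 and 15.2, 17.5 and 21.4 at day 3 and rose by 1.90 ± 0.10 (adjusted p = 1.55e-16). Col12a1, for a collagen that decorates fibrils, changed by -0.77 ± 0.16 and was lower at day 7 (adjusted p = 0.000493). Col1a1, the main chain of collagen I, had 62.9, 13.9 and 16.3 at day 7 and 14.0, 15.7 and 14.4 at day 3. On this probe set only day 7 replicate 1 was high: the log2 difference was 0.73 (adjusted p = 0.0448) with that array and 0.04 (adjusted p = 0.883) without it. Leaving out any of the 3 day 3 arrays also ended this call (adjusted p = 0.12, 0.0679 and 0.0993). Another probe set of Col1a1 averaged 37.7 at day 7 and 12.65 at day 3 and rose by 1.29 ± 0.23 (adjusted p = 0.000118 in limma). How far that rise rests on 1 array was not tested. Ccdc80, a secreted matrix protein that belonged to no list, had 607, 630.2 and 600.4 at day 7 and 89.2, 65.0 and 97.4 at day 3 and rose by 2.89 ± 0.17 (adjusted p = 3.63e-15). Among metalloproteinases and their inhibitors 5 of 25 rose and 1 fell, with Serpine2, an inhibitor of thrombin and plasmin-type proteases, at 1.10 and Timp3, an inhibitor of metalloproteinases, at 0.62.

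Of 31 measured genes of lipid carriers and lipid enzymes 15 rose and 3 fell, with a median log2 change of 0.21. Among all genes 9.02% rose and 7.68% fell. Without day 7 replicate 2 the counts were 11 and 2, without day 7 replicate 1 they were 11 and 1, and without day 3 replicate 3 the members called in either direction numbered 11. Apoc1, a small apolipoprotein encoded beside Apoe, had 27.3, 36.8 and 44.9 at day 7 and 11.0, 10.5 and 9.22 at day 3, where it was near background, and rose by 1.80 ± 0.16 (adjusted p = 1.18e-10). Fads2, a fatty acid desaturase, rose by 1.04 ± 0.13 and Abca1, which loads cholesterol onto apolipoproteins, by 0.81 ± 0.17. In cholesterol synthesis 5 of 19 genes rose and 2 fell, with log2 changes between -0.31 and 0.36.

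Of 27 lysosomal genes 10 rose, 17 did not pass and 0 fell (0 also fell at an unadjusted p under 0.05 in limma), with a median of 0.16 and 8 rises without day 7 replicate 2. For all genes the shares were 9.02% higher and 7.68% lower. Ctsc, for the dipeptidase cathepsin C, had 105, 136 and 130.1 at day 7 and 29.2, 30.9 and 23.9 at day 3 and rose by 2.14 ± 0.13 (adjusted p = 3.73e-15). Ctsh, for cathepsin H, had 659.5, 691 and 688 at day 7 and 324, 335 and 351 at day 3 and rose by 1.01 ± 0.17 (adjusted p = 2.78e-05). The lipid-degradation cofactor Psap and the membrane protein Lamp1 rose by 0.47 and 0.46, less than the 2 cathepsins. Sod3, the secreted superoxide dismutase, had 386, 459.7 and 454 at day 7 and 83.8, 107 and 121 at day 3 and rose by 2.07 ± 0.11 (adjusted p = 1.21e-15).

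In glycolysis 7 of 24 genes rose and 1 fell (median 0.14), beside 9.02% and 7.68% of all genes. The glucose transporter Slc2a1 had 268, 279.7 and 230.2 at day 7 and 134, 136 and 127 at day 3 and rose by 0.96 ± 0.09 (adjusted p = 1.11e-10), and the rate-setting kinases Hk1 and Pfkp rose by 0.70 and 0.70. Tpi1, for triosephosphate isomerase, changed by -0.18 (adjusted p = 0.00832). In the amino acid response and serine pathway 9 of 24 rose and 1 fell (median 0.15), against 6 and 0 without day 7 replicate 2. Its members included the stress transcription factor Atf5 (0.81), the mTOR inhibitor gene Ddit4 (0.64), the heavy chain of amino acid exchangers Slc3a2 (0.44) and the arginine transporter Slc7a1 (0.44). In the respiratory chain 5 of 31 rose, by 0.19 to 0.30, and 0 fell (0 also fell at an unadjusted p under 0.05 in limma).

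Neuronal genes split. Of 35 pan-neuronal genes 5 rose and 6 fell, with a median of 0.02, beside 9.02% higher and 7.68% lower over all genes. Scg3, which encodes a granin of secretory vesicles, had 192, 257 and 258 at day 7 and 57.8, 63.7 and 72.0 at day 3 and rose by 1.86 ± 0.11 (adjusted p = 5.58e-15). Tagln3, for a cytoskeletal protein, rose by 0.92 ± 0.10. Elavl4, for the neuronal RNA-binding protein HuD, had 118, 140.0 and 149 at day 7 and 263, 226 and 244 at day 3, a log2 difference of -0.85 ± 0.07 (adjusted p = 3.63e-11). Uchl1, for an abundant ubiquitin hydrolase of neurons, had 366, 386 and 390.2 at day 7 and 624, 632 and 613 at day 3, a difference of -0.71 ± 0.05 (adjusted p = 1.75e-12). The members named here moved in both directions, and Tubb3, for neuronal beta-tubulin, was near background on both days (10.2 ± 0.62 at day 7 and 13.4 ± 1.20 at day 3).

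The title of the series concerns GABA-producing neurons and Dlx transcription factors, so these genes are given for Ge2 too. Of 17 GABA and interneuron genes 2 rose and 0 fell (0 fell at an unadjusted p under 0.05 in limma). Gad1, for an enzyme that makes GABA, had 807, 926 and 898 at day 7 and 633, 599 and 585 at day 3 and rose by 0.53 ± 0.13 (adjusted p = 0.0031), while another probe set of Gad1 differed by 0.04 and did not pass. Abat, for the enzyme that breaks GABA down, rose by 0.76 ± 0.12 (adjusted p = 2.78e-05). Gad2 did not pass (0.26 ± 0.11, adjusted p = 0.113). Dlx1 and Dlx5 were near background at both days and did not pass (adjusted p = 0.85 and 0.121). Reln, for the secreted guidance protein reelin, had 4069, 4139.6 and 4191 at day 7 and 3988, 4132 and 4048 at day 3, which overlapped (adjusted p = 0.947).

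Nptx1, for neuronal pentraxin 1, which gathers AMPA receptors at synapses, had 498, 514 and 504 at day 7 and 120.1, 76.2 and 73.0 at day 3 and rose by 2.53 ± 0.15 (adjusted p = 5.76e-15). Cntf, for ciliary neurotrophic factor, had 511, 617 and 505 at day 7 and 225, 235 and 211 at day 3 and rose by 1.28 ± 0.10 (adjusted p = 3.3e-12). Adhesion genes went both ways, with 5 of 27 higher and 5 lower. Cntn1, for the adhesion protein contactin 1, rose by 1.74 ± 0.17 and Cdh13, for an anchored cadherin, by 1.06 ± 0.17. Cd24 and Mcam, for surface glycoproteins, changed by -0.99 ± 0.08 and -1.23 ± 0.14. Sdc4, for the heparan sulfate proteoglycan syndecan-4, rose by 2.13 ± 0.18, with 122, 129 and 148 at day 7 and 34.1, 36.9 and 22.2 at day 3. Further rises among the 15 largest were those of the glutathione transferase gene Gsta1 (2.13), the phospholipase gene Plaat3 (2.18), Mro (2.86), Cmbl (2.38), Mmd2 (2.09) and Vopp1 (2.04).

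The deepest fall was that of Crym, which encodes a thyroid hormone-binding protein. Its intensity was 67.9, 48.2 and 55.4 at day 7 and 253, 253 and 325 at day 3, a log2 difference of -2.28 ± 0.16 (adjusted p = 8.9e-13). It was an early gain that was partly lost, with a mean of 10.2 ± 0.36 at day 0, 277 ± 41.9 at day 3 and 57.1 ± 9.95 at day 7. Igfbp2, for an insulin-like growth factor binding protein, had 195, 76.1 and 103 at day 7 and 526, 464 and 497 at day 3, a difference of -2.10 ± 0.15 (adjusted p = 4.14e-13). It averaged 4493 ± 246 at day 0, so it dropped at both steps. Fbn2, for fibrillin-2 of microfibrils, had 147, 53.1 and 108 at day 7 and 456, 403 and 325 at day 3, a difference of -2.05 ± 0.20 (adjusted p = 8.93e-10). Hmcn1, for the matrix protein hemicentin-1, had 29.8, 20.6 and 24.1 at day 7 and 80.4, 79.1 and 74.1 at day 3, a difference of -1.67 ± 0.10 (adjusted p = 3.63e-15). Fbn2 and Hmcn1 are matrix genes, and they went against Fmod, Ogn, Bgn and Omd above, as did the large proteoglycan gene Vcan. Gria2, for an AMPA receptor subunit, changed by -1.36 ± 0.17, the long noncoding RNA gene Meg3 by -1.37 ± 0.13, the RNA-binding protein gene Rbpms by -1.19 ± 0.12, the potassium-chloride transporter gene Slc12a7 by -1.16 ± 0.15 and Csrnp3 by -1.08 ± 0.14. Other probe sets of Meg3 changed by -0.03, which did not pass, and by -0.63 and -0.91, which did.

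Several of the falls rested in size on day 7 replicate 2. Mllt10, for a chromatin cofactor, had 189.6, 30.1 and 183 at day 7 and 331, 269.8 and 309 at day 3, a log2 difference of -1.58 that became -0.70 without that array (adjusted p = 7.06e-05). Other probe sets of Mllt10 were called lower by less, at -0.55, -0.51 and -0.41 with all arrays. For the DNA-binding protein gene Arid5b the difference was -1.19 with replicate 2 and -0.57 without it, and for the Wnt inhibitor gene Cxxc4 it was -1.13 and -0.50. All 3 still passed without the array. Stat3, for a transcription factor of cytokine signalling, had 481, 186 and 537 at day 7 and 655, 620.2 and 604 at day 3 and no longer passed without it (-0.30, adjusted p = 0.0612, against -0.78 and 0.00316 with it). Another probe set of Stat3 was called lower with all arrays (-0.30 ± 0.09, adjusted p = 0.0255 in limma). Of the 91 genes low on that array, 37 were called lower with the array and 7 without it. The 91 genes were chosen by their values on that array, so fewer calls without it follow from the choice. Of all 979 genes called lower, 635 were still called lower without it.

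Genes known as targets of FGF and ERK signalling showed no common direction, with 2 of 20 higher, 2 lower and a median of -0.08. Etv1, an ETS factor induced by FGF, had 219.7, 116 and 153 at day 7 and 410.5, 426 and 438 at day 3, a difference of -1.43 ± 0.12 (adjusted p = 1.95e-11). Fos had 64.6, 45.4 and 48.2 at day 7 and 94.3, 132 and 116 at day 3, a difference of -1.12 ± 0.19 (adjusted p = 4.48e-05). Egr1, an immediate-early gene like Fos, had 86.8, 99.6 and 121 at day 7 and 29.1, 44.5 and 34.5 at day 3 and rose by 1.52 ± 0.15 (adjusted p = 1.04e-09). These 2 immediate-early genes therefore moved in opposite directions. The ERK phosphatase gene Dusp6 did not pass (-0.20 ± 0.11, adjusted p = 0.249). In the BMP and TGF-beta list 3 of 28 rose and 3 fell, with Id1, an inhibitor of differentiation factors, at -0.89 ± 0.11 and its relative Id4 at 0.51 ± 0.11.

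By day 3 the genes of mitosis, the step at which a cell divides, were already low: their median intensity was 595 at day 0, 20.3 at day 3 and 26.4 at day 7. Of 27 mitosis genes 5 rose and 0 fell at day 7 (2 fell at an unadjusted p under 0.05 in limma), with a median log2 change of 0.25. In 24 of the 27 the highest of the 6 arrays was day 7 replicate 1. Set against the day 3 mean, the median over the list was 0.76 in day 7 replicate 1, -0.15 in replicate 2 and 0.05 in replicate 3, while the day 3 arrays lay at 0.09, -0.01 and -0.12. Without replicate 1, 3 rose and 1 fell and the median was -0.02, and without replicate 2, 15 rose and the median was 0.44. The count of called members was 8 without day 3 replicate 1 and 10 without day 7 replicate 3. In 9 of the 27 genes, Kif11 and Mki67 among them, the lower of the day 7 and day 3 means was under 16.3, near background. Kif11, for a spindle motor, had 32.1, 21.3 and 21.0 at day 7 and 13.1, 18.5 and 15.2 at day 3 (0.65 ± 0.12, adjusted p = 0.000127). Mki67, the proliferation marker, had 26.1, 11.7 and 8.99 at day 7 and 13.0, 11.6 and 10.8 at day 3 and did not pass (0.25, adjusted p = 0.434), but did without day 7 replicate 3 (0.57, adjusted p = 0.0241).

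**Figure D3:**
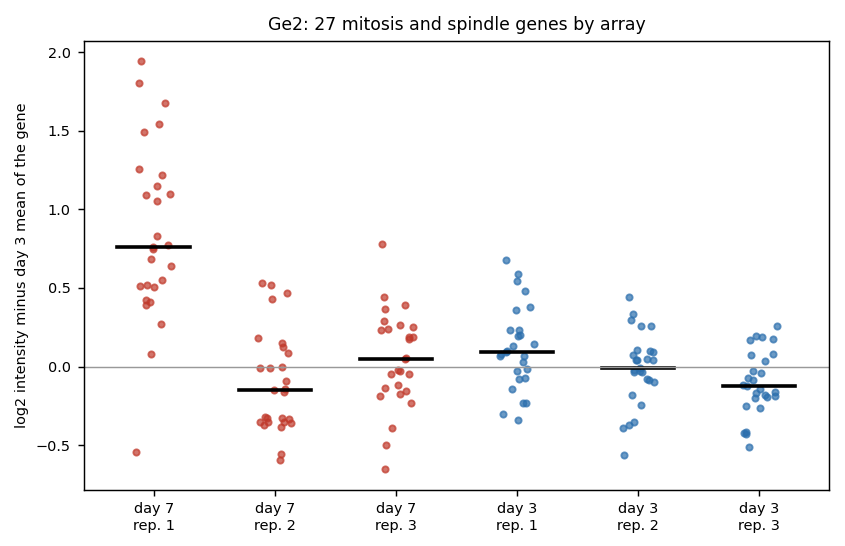
Log2 intensity of the 27 measured mitosis genes minus the day 3 mean of the same gene, for each of the 3 day 7 arrays and the 3 day 3 arrays of Ge2, with 1 point per gene and a bar at the median. Day 7 replicate 1 lies above the other 5 arrays, with a median of 0.76, and the other medians lie between -0.15 and 0.09.

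Among genes of DNA replication 2 of 28 were higher and 3 lower, with a median of -0.04. These shares were near those over all genes, 9.02% higher and 7.68% lower. In 12 of the 28 the highest of the 6 arrays was day 7 replicate 1. Without day 7 replicate 1, 0 were higher and 7 lower, and without day 3 replicate 3 only 2 members were called. Rrm2, for a ribonucleotide reductase subunit, had 107, 25.5 and 26.0 at day 7 and 41.9, 18.9 and 12.6 at day 3. It was called higher with replicate 1 (0.94, adjusted p = 0.0253) and not without it (0.26, adjusted p = 0.485), nor without day 3 replicate 2 or 3 (adjusted p = 0.0945 and 0.254). Mcm2, of the replicative helicase, had 171, 161 and 145 at day 7 and 211, 224 and 218 at day 3, a difference of -0.45 ± 0.09 (adjusted p = 0.000633). Among cell cycle inhibitors, D cyclins and growth arrest genes 5 of 19 rose and 4 fell. The cyclin Ccnd2 had 280.4, 447 and 436 at day 7 and 163, 175 and 213 at day 3 and rose by 1.05 ± 0.11 (adjusted p = 1.66e-09). In Ccnd2 replicate 1 was the lowest of the day 7 arrays, the reverse of the mitosis genes. Cdkn1a, for the inhibitor p21, rose by 0.85 ± 0.11.

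Interferon and antigen presentation genes had a share of rises near that of all genes, with 4 of 34 higher, 1 lower and a median of -0.01. B2m, the light chain of class I molecules, had 2159, 2415 and 2447 at day 7 and 1718, 1523 and 1624 at day 3 and rose by 0.53 ± 0.09 (adjusted p = 6.08e-05). Gbp2, for an interferon-induced GTPase, rose by 0.76 ± 0.10, and Irf9, for part of the interferon response factor, changed by -0.49 ± 0.11. Rsad2, Irf1 and Il33 did not pass (adjusted p = 0.363, 0.109 and 0.954), though Rsad2 did without day 3 replicate 3 (0.36, adjusted p = 0.0112).

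The called members of the lists of other cell types ranged from 0 to 10. These lists differ in size, and over all genes 9.02% were higher and 7.68% lower. No gene of the oligodendrocyte lineage (0 of 11) and none of microglia (0 of 18) was called by limma, with 0 and 1 at an unadjusted p under 0.05. In myelin 1 of 17 rose and 1 fell, in endothelium 0 of 15 rose and 1, Kdr, fell (1 rose and 2 fell at an unadjusted p under 0.05), and in pericytes and smooth muscle 1 of 19 rose and 1 fell. In the Schwann and neural crest list 4 of 17 rose and 0 fell (1 fell at an unadjusted p under 0.05), led by S100b, which astrocytes express too, and by the neurotrophin receptor Ngfr (21.1, 21.7 and 22.2 at day 7 and 12.4, 10.1 and 12.2 at day 3). Among neural precursor genes 2 of 14 rose and 2 fell. Those that fell were Pax6, a transcription factor of radial glia (-0.60 ± 0.10), and the surface marker Prom1 (-0.59 ± 0.13). In reactive glia 2 of 20 rose and 3 fell. Glial channels and transporters rose in 9 of 26 and fell in 1, with the potassium channel Kcnj10 at 0.59 ± 0.16. Kcnj10 was not called without day 3 replicate 2 (0.46, adjusted p = 0.0652). Axon guidance genes rose in 3 of 31 and fell in 4, including the receptors Robo2 (-0.86) and Epha4 (-0.81) among the falls and Unc5c (0.99) among the rises. Other, dimmer probe sets of Robo2 changed by -0.13 and -0.07 and did not pass.

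The counts of the signalling and housekeeping lists stand beside shares over all genes of 9.02% higher and 7.68% lower. These lists are short, so 1 or 2 members move a share by much. Rises and falls numbered 2 and 2 of 17 for FGF ligands and receptors, 2 and 1 of 19 for Notch, 2 and 1 of 28 for Wnt, 2 and 3 of 16 for insulin-like growth factors and 3 and 1 of 29 for other growth factors. They numbered 2 and 2 of 20 for basement membrane and integrins, 2 and 2 of 28 for complement, and 2 and 1 of 24 for protein folding. Of 18 aminoacyl-tRNA synthetases 2 rose and 0 fell (1 fell at an unadjusted p under 0.05 in limma). Nid2, for the basement membrane linker nidogen-2, rose by 0.76 ± 0.15, and Hspg2, for perlecan, changed by -0.70 ± 0.13.

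**Figure D4:**
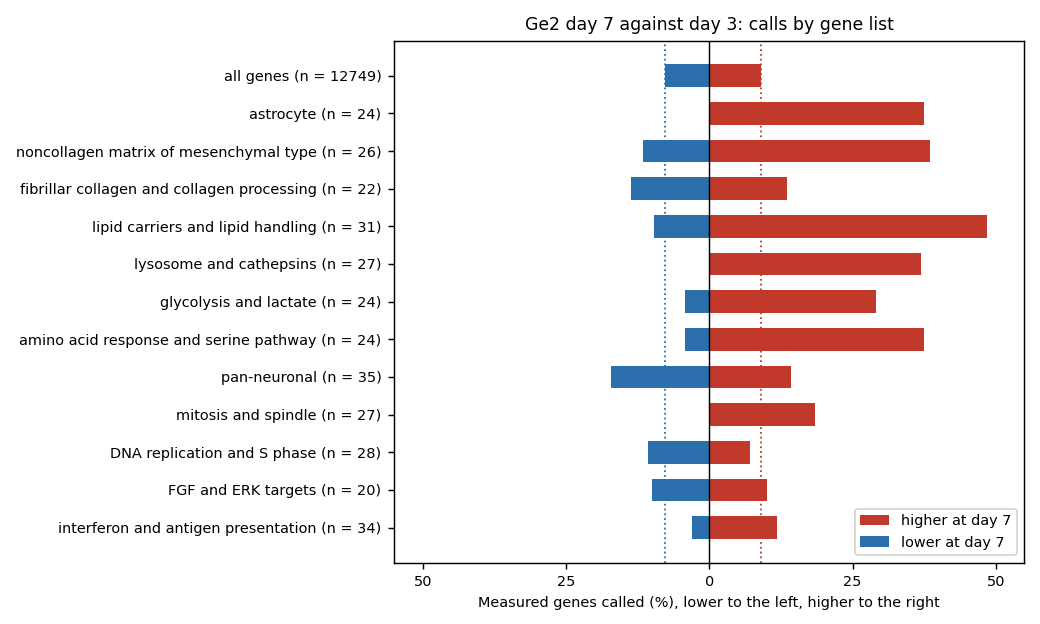
Percent of the measured members of 12 gene lists that were higher (to the right) or lower (to the left) at day 7 than at day 3 in Ge2, with the share over all 12749 genes drawn as dotted lines. Lipid carriers, matrix, astrocyte, lysosome and amino acid genes have the longest bars to the right, and pan-neuronal genes have bars of similar length on both sides.

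The late change of Ge2 was then set against that of the other clones over the same days. Counts of called genes were 2129 in Ge2, 2846 in Ctx8, 5664 in Ge6, 2258 in L2.2 and 1969 in L2.3, and those at least 2-fold were 129, 248, 771, 263 and 176 in the same order. The difference between the change in Ge2 and the mean change of the other 4 clones passed for 2676 genes (21%), 1482 with a higher value in Ge2 (11.6%) and 1194 with a lower one (9.37%). With all arrays shifted to one median the split was 1975 and 929. Of the 30 genes with the largest changes in Ge2, 25 differed from the other clones, 12 rises and 13 falls. These genes were chosen for their change in Ge2, which is part of the difference, so that count is a description.

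Fmod was the clearest of them: its late change was 2.88 in Ge2, against 0.25 in Ctx8, 0.04 in Ge6, 0.47 in L2.2 and 0.28 in L2.3, a difference of 2.62 ± 0.15 (adjusted p = 4.44e-15). Crym changed by -2.28 in Ge2, against 0.41 in Ctx8, -0.12 in Ge6, 0.42 in L2.2 and 0.72 in L2.3, a difference of -2.64 ± 0.18 (adjusted p = 7.83e-13). Nptx1 rose by 2.53 in Ge2, against 1.45 in Ctx8, 0.22 in Ge6, 0.04 in L2.2 and -0.07 in L2.3, a difference of 2.12 ± 0.17 (adjusted p = 1.41e-11). For these genes the change in Ge2 stood outside the values of all 4 other clones. Mt3 rose by 3.00 in Ge2, against 0.72 in Ctx8, 3.75 in Ge6, 1.20 in L2.2 and 0.66 in L2.3, a difference of 1.42 ± 0.16 (adjusted p = 2.78e-08). Fos changed by -1.12 in Ge2, against 0.85 in Ctx8, 0.58 in Ge6, 0.15 in L2.2 and 1.60 in L2.3, a difference of -1.91 ± 0.21 (adjusted p = 2.5e-08). Sdc4 is an example of a large change that did not differ at the threshold, with 2.13 in Ge2 against 4.28 in Ctx8, 0.58 in Ge6, 0.32 in L2.2 and 2.31 in L2.3 (0.26 ± 0.20, adjusted p = 0.414). The others that did not pass were Plaat3, Gsta1, Arid5b and Slc12a7.

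**Figure D5:**
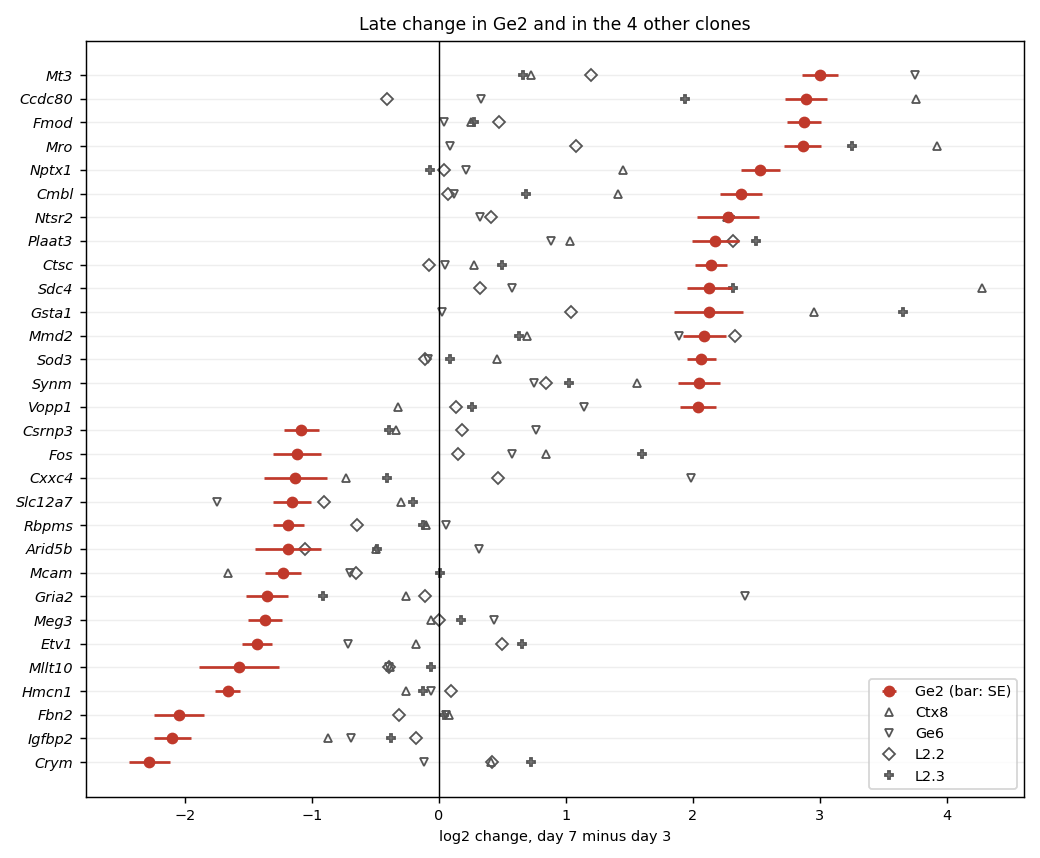
Late change (day 7 minus day 3, log2) of the 30 genes with the largest rises and falls in Ge2, with the value of Ge2 and its SE beside those of Ctx8, Ge6, L2.2 and L2.3. Ge2 lies outside the other clones for genes such as Fmod, Nptx1 and Crym and among them for Sdc4 and Gsta1.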

How the data were processed

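Affymetrix rat arrays were read for 5 clones at 3 time points, 44 arrays in 15 groups of 2 or 3. The authors deposited 1 intensity per probe set and array on a linear scale, made with GCOS and RMA per the submitters' processing notes. Their versions, the chip files and any array dates are not given in the sources used here. RMA brings the arrays toward a common distribution, which can hide a shift shared by all genes. The medians of the 44 arrays still ranged from 24.2 to 28.9. The small number of arrays per group sets the precision. Of 24183 probe sets, 17547 named 1 gene, 213 several and 6423 none in the platform annotation. Symbols were updated by gene ID to RefSeq for 17450 of them. For each of 12749 genes 1 probe set was kept, the brightest on average. Intensities were taken to log2, and a model with 1 mean per group was fitted to all arrays with limma 3.58.1 in R 4.3.3 (lmFit and eBayes, 29 residual and 5.00 prior degrees of freedom). Tests were 2-sided, with Benjamini-Hochberg adjustment over all genes and a threshold of 0.05. The steps were tested on simulated data. Promoter sequences are those of RefSeq, build GRCr8.

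The genes and the 38 gene lists were chosen with earlier results of these data known. Named genes were the 15 largest rises and 15 largest falls among called genes with no overlap of their day 7 and day 3 arrays and with a higher mean at or above the 60th percentile of all values. To these came, per list, up to 4 called members each way and the 2 brightest uncalled ones, and a set of markers. Omd, Mt1, Mt2A, Cpe, Eln, Mlc1, Clu, Psap, Slc1a3, Lamp1 and Map2 were named after their values were seen. Alternatives were another normalization, a filter on genes under the 40th percentile, the mean over probe sets, array weights, a variance trend, a 1.2-fold minimum, fits to 6 or 9 arrays, a replicate block, and leaving out each array. Leaving out both day 7 replicates 1 and 2 was added after seeing the data. No sample was left out of the model.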

Additional observations from a re-analysis of the deposited data

Results flagged for a closer look

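Of the 30 genes with the largest late changes in Ge2, 25 differed from the mean late change of Ctx8, Ge6, L2.2 and L2.3 by the limma contrast of the difference itself, with adjusted p of at most 0.0264. The genes were chosen for their change in Ge2, which enters this contrast. Values below are the late change in Ge2 minus that mean, on the log2 scale.

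Among the rises the difference was 2.62 for Fmod, 2.12 for Nptx1, 1.98 for Sod3, 1.96 for Ctsc, 1.81 for Cmbl and 1.74 for Vopp1. It was 1.49 for Ccdc80, 1.42 for Mt3, 1.00 for Synm, 0.95 for Ntsr2, 0.78 for Mro and 0.70 for Mmd2. Mt3 rose by more in Ge6 (3.75) than in Ge2 (3.00). Ccdc80 and Mro rose by more in Ctx8 (3.75 and 3.93), Mro also in L2.3 (3.25), Mmd2 by more in L2.2 (2.34 against 2.09 in Ge2), and Ntsr2 rose as far in L2.3 (2.29 against 2.28 in Ge2), so a difference from the mean is not a difference from each clone.

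Among the falls the difference was -2.64 for Crym, -2.01 for Fbn2, -1.91 for Fos, -1.64 for Gria2, -1.58 for Hmcn1 and -1.57 for Igfbp2. It was -1.51 for Meg3, -1.50 for Etv1, -1.46 for Cxxc4, -1.27 for Mllt10, -1.14 for Csrnp3, -0.98 for Rbpms and -0.48 for Mcam. Mcam fell further in Ctx8, with -1.67 against -1.23 in Ge2. Cxxc4, Mllt10 and Fbn2 are among the genes that were low on day 7 replicate 2, and Igfbp2 was high on day 7 replicate 1. With 1 Ge2 array left out at a time, the late change of Fbn2 in Ge2 ranged from -2.37 to -1.63. That of Igfbp2 ranged from -2.48 to -1.80.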

How the results depend on the processing

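The median of the mitosis list, 0.25, was -0.02 without day 7 replicate 1. A 1.2-fold minimum left 336 genes called, 237 higher and 99 lower, and 510 for the difference from the other clones, 234 higher and 276 lower. Under it the called list members numbered 7 in noncollagen matrix, 1 in fibrillar collagen, 5 in lipid carriers, 2 in lysosome, 3 in glycolysis, 2 in amino acid response, 5 in pan-neuronal, 1 in mitosis, 0 in DNA replication and 2 in interferon. The fit to 6 arrays called 898 genes, 557 higher and 341 lower, with 9 lipid, 4 glycolysis, 5 amino acid, 0 mitosis and 1 DNA replication genes. The fit to the 9 arrays of Ge2 called 1063, 660 higher and 403 lower, with 9 lipid, 5 amino acid, 7 pan-neuronal, 1 mitosis and 1 DNA replication genes. Array weights raised the mitosis count to 9. With day 7 replicate 3 as the sole day 7 array, assumed to vary like the other groups, 1168 genes were called, 690 higher and 478 lower, and 1550 for the difference, 895 higher and 655 lower. That fit held 3 fibrillar collagen, 10 lipid and 5 glycolysis genes. With all arrays shifted to one median the difference split into 1975 higher and 929 lower.

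Leaving out 1 array at a time called 1596 to 2055 genes, with 19 to 46 of them at least 2-fold lower. The called members ranged from 11 to 13 in lipid carriers, 6 to 10 in amino acid response, 4 to 15 in mitosis and 2 to 7 in DNA replication. The replicate numbers were not taken to pair the cultures. Deviations of same-numbered day 7 and day 3 arrays correlated at 0.170, 0.036 and 0.057, and those of unlike number at -0.131 to 0.074. Day 3 replicates 1 and 2 correlated most with the day 7 array of the same number. Day 3 replicate 3 correlated most with day 7 replicate 2, at 0.074. The replicate block within each clone called 2129 genes, 1151 higher and 978 lower, and 2657 for the difference.

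For the 116 genes named in the text, 17 alternatives gave 1972 values, of which 1902 stayed on the same side of the threshold, 64 lost the call and 6 gained it, and 0 called values changed direction. Other probe sets existed for 39 named genes: of 61, 38 gave the same call, 0 the opposite one, and 23 differed in whether they passed. The authors' detection calls and array dates were not used here, so signals near background and any batch limit what can be said of dim genes.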
